A study of Homo sapiens with 12 samples.

Results

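The signaling route through STAT3 was followed in 2 melanoma cell lines by means of 10 genes out of the 23273 listed for each line. These were the secreted protease inhibitors SERPINA3 and A2M, the feedback inhibitors SOCS3 and SOCS2, the transcription factor STAT3, the receptor chains IL6ST, OSMR, and LIFR, the ligand LIF, and the nuclear cofactor BCL3. They were chosen by symbol, and all 10 were found in both tables. SERPINA3 and A2M were selected on their levels at 24 h in these same libraries, so their values are a description and carry no test. The other 8 were chosen by their place in the pathway, with earlier results of these data known. STAT3 level rose in COLO858 cells at both times, LIF fell there at both times, and OSMR fell in MMACSF cells at 48 h. SERPINA3 stood highest at 24 h in both lines, whereas A2M did so only in MMACSF.

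RNA was sequenced from 12 libraries of COLO858 and MMACSF, both established human melanoma lines grown in culture. Each line was exposed to DMSO, the vehicle, or to 0.2 μM vemurafenib, an inhibitor of RAF kinases, for 24 or 48 h, with 2 replicate plates per group. The labels do not say at which of the 2 times the DMSO plates were harvested, and the same DMSO pair served as control for both drug times. The lines were seeded at different densities in different growth media, with serum in both. Each line is a single culture, plates of a group came from that culture, and p-values therefore measure the spread between plates.

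IL-6 family cytokines such as LIF, IL-11, and oncostatin M bind receptor chains that pair with gp130, the product of IL6ST. The receptors activate JAK kinases, which phosphorylate STAT3. Phosphorylated STAT3 dimers enter the nucleus and bind palindromic sites, and SOCS3 is a classical target that shuts the receptor off again. SERPINA3 (α1-antichymotrypsin, an inhibitor of cathepsin G and chymase) is an acute phase protein of the liver that this route can induce. A2M (α2-macroglobulin) traps proteases of many kinds, and this route can induce it as well. SERPINA3 is also expressed in melanoma. Activation of STAT3 is a matter of phosphorylation, which RNA levels do not show.

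Promoter sequence was read from RefSeq (GRCh38.p14) for 7 of the 10 genes, in 10 windows of 300 bases that run from 250 before to 50 after a transcript start. A2M, SOCS2, and LIF were not matched. The STAT palindrome TTCNNNGAA, which reads the same on both strands, occurs in 7.66% of 35116 such windows. Among these genes it was found only in LIFR, in 2 of its 3 windows, with its first base 182 and 165 bases before the start. Both stretches are shown with the match in capitals, from chr5:38557630-38557659 and chr5:38595551-38595580 on the minus strand.

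LIFR upstream, middle of 3 starts: gctttggagtTTCATCGAAaggtctttaaa
LIFR upstream, farthest upstream of 3 starts: ccattactagTTCCTTGAAccacaatccaa

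SERPINA3 is shown as a gene selected on its 24 h level, and STAT3 as the transcription factor that names the route. The 250 bases before the start are given for each, from chr14:94612141-94612390 on the plus strand and chr17:42388443-42388692 on the minus strand. Capitals mark TTCC and its complement GGAA, the first letters of one common form of the palindrome and also the core of ETS factor sites.

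SERPINA3 upstream: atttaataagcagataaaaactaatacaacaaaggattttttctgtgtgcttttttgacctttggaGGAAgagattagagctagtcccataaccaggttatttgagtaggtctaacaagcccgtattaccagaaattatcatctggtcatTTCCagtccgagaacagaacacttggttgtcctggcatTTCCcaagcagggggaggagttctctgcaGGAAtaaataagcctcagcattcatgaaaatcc
STAT3 upstream: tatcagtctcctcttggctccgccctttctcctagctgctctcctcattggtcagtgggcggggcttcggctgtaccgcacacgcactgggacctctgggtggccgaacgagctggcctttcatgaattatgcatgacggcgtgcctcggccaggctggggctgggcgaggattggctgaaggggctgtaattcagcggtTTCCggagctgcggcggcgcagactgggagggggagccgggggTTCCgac

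The SERPINA3 stretch holds 4 such 4-letter matches and the STAT3 stretch 2, against a median of 3 over all windows. At least 4 matches occur in 34.3% of windows and at least 2 in 76.5%. The AP-1 motif TGANTCA occurs in 7.71% of windows and, among these genes, was found only in OSMR. A match is a description of letters, and no match says only that these letters are not in the window.

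Expression is given as FPKM, that is, fragments normalized to transcript length and to library size, as deposited. Read depth is unknown, and the 2 lines come in separate tables, so only changes against a line's own DMSO cells were compared between lines. Tests used limma on log2(FPKM + 1) over 12696 genes in COLO858 and 12599 in MMACSF, those that reached a mean of 1 FPKM in any group. All p-values are two-sided, adjusted by Benjamini-Hochberg over all genes tested, and called under 0.01. Log2 differences are on the log2(FPKM + 1) scale, which understates the change of low genes. A value of exactly 0 is given as listed at 0, because TUBB, a tubulin gene used by dividing cells, is itself listed at 0 in both lines.

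Drug action was visible in the MAPK output list, where 5 of 6 genes (DUSP6, ETV4, ETV5, SPRY2, and SPRY4) fell in each line at each time. Over all genes tested, 5.71% and 4.73% fell in COLO858 at 24 and 48 h, and 3.6% and 5.41% in MMACSF. Of 8 melanocyte lineage markers, MITF, PMEL, DCT, SOX10, and S100B had at least 56.2 FPKM in every library of both lines. MLANA stayed at 0.299 to 0.725 FPKM and TYR at 0.282 to 1.21 FPKM in COLO858, whereas both had at least 178 FPKM in MMACSF. TYRP1 was low in both lines, at 2.04 to 16.4 FPKM in COLO858 and 1.48 to 6.21 FPKM in MMACSF. Of 7 markers tested in COLO858 4 rose at each time, beside 4.11% of all genes tested at 24 h and 4.74% at 48 h. Of 8 tested in MMACSF 1 rose at 24 h and 3 at 48 h, beside 2.22% and 3.42%. In COLO858 the summed level of the 8 markers was 702 to 717 FPKM under DMSO, 3922 to 4158 at 24 h, and 4144 to 4149 at 48 h. DCT alone held 35.1% to 40.2%, 71.1% to 73.1%, and 51.6% to 52.1% of these sums. In MMACSF the sums were 11159 to 11373, 15589 to 16776, and 16831 to 17555 FPKM. Hepatocyte markers summed to at most 1.80 FPKM in any library and endothelial markers to at most 0.794 FPKM. Leukocyte markers summed to at most 4.76 FPKM. In MMACSF the 1 tested, LYZ, was called lower at 48 h, with a log2 difference of -1.61. Among defining markers, APOB and CD3E were listed at 0 in all libraries of both lines, CDH5 in COLO858, and ALB and CD14 in MMACSF. Fibroblast markers summed to 9.14 to 28.4 FPKM in COLO858 and 20.1 to 79.1 FPKM in MMACSF. Of 4 tested in COLO858, COL1A2 was called lower at both times and COL1A1 higher at 48 h. In MMACSF the fibroblast markers were lowest at 48 h, at 20.1 to 28.9 FPKM against 57.8 to 79.1 FPKM under DMSO. Of these 5 markers 3 were tested and all 3 were lower, with 0 called by limma and 3 at an unadjusted p under 0.05. In bulk RNA fewer cells of a type and less RNA per cell cannot be told apart. MIR4461 alone held 14.1% to 19.0% of the summed FPKM in replicate 1 of each group and 25.8% to 43.4% in replicate 2.

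Under DMSO the 10 genes were ordered differently in the lines, as read per length within each table. In COLO858 the means fell from SERPINA3 (83.9 FPKM) through LIF (61.3) and STAT3 (33.9) to BCL3 (8.99), OSMR (8.05), IL6ST (7.51), SOCS2 (7.06), LIFR (4.01), SOCS3 (1.42), and A2M (1.07). BCL3, OSMR, IL6ST, and SOCS2 overlapped in their replicates, and the other neighbors did not. In MMACSF STAT3 was highest (45.5 FPKM), above OSMR (32.7), IL6ST (20.2), SERPINA3 (6.70), SOCS3 (6.31), BCL3 (4.54), SOCS2 (3.82), A2M (2.23), LIFR (2.09), and LIF (1.86). From SERPINA3 down, the replicates of each MMACSF gene overlapped those of the next, with the exception of SOCS2 and A2M.

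SERPINA3 (chr14:95078721-95090392, plus strand, GRCh37) was the highest of the 10 genes in COLO858 cells under DMSO and at 24 h. Its FPKM was 80.2 and 87.6 in the DMSO libraries, 278 and 280 at 24 h, and 20.6 and 21.8 at 48 h. MMACSF libraries had 7.58 and 5.82 under DMSO, 23.5 and 23.4 at 24 h, and 0.137 and 0.602 at 48 h. The groups did not overlap in either line, and 48 h was the lowest group in both. The mean FPKM at 24 h was 3.32-fold that of DMSO in COLO858 and 3.49-fold in MMACSF. At 48 h it was 3.96-fold and 18.1-fold below DMSO, the second ratio resting on values under 1 FPKM. From 24 to 48 h the log2 difference was -3.66 ± 0.12 (SE) in COLO858 and -4.18 ± 0.22 in MMACSF. SERPINA3 overlaps an unnamed protein-coding gene on the same strand that is not listed in these data. Reads at shared places could therefore be counted for SERPINA3.

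A2M (chr12:9220260-9268825, minus strand, GRCh37) was the lowest of the 10 genes in COLO858 under DMSO. Its FPKM there was 1.08 and 1.06 under DMSO, 4.75 and 6.18 at 24 h, and 7.60 and 9.12 at 48 h. In MMACSF it was 2.28 and 2.18 under DMSO, 29.1 and 31.2 at 24 h, and 2.03 and 2.55 at 48 h. In COLO858 the level at 48 h was thus the highest, while in MMACSF the 48 h libraries lay on either side of the DMSO pair. The mean at 24 h was 5.10-fold that of DMSO in COLO858 and 13.5-fold in MMACSF. The log2 difference of 48 h against DMSO was 2.17 ± 0.18 in COLO858 and 0.02 ± 0.15 in MMACSF, and from 24 to 48 h it was 0.54 and -3.25. The name of a transient A2M therefore described MMACSF but not COLO858.

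**Figure D1:**
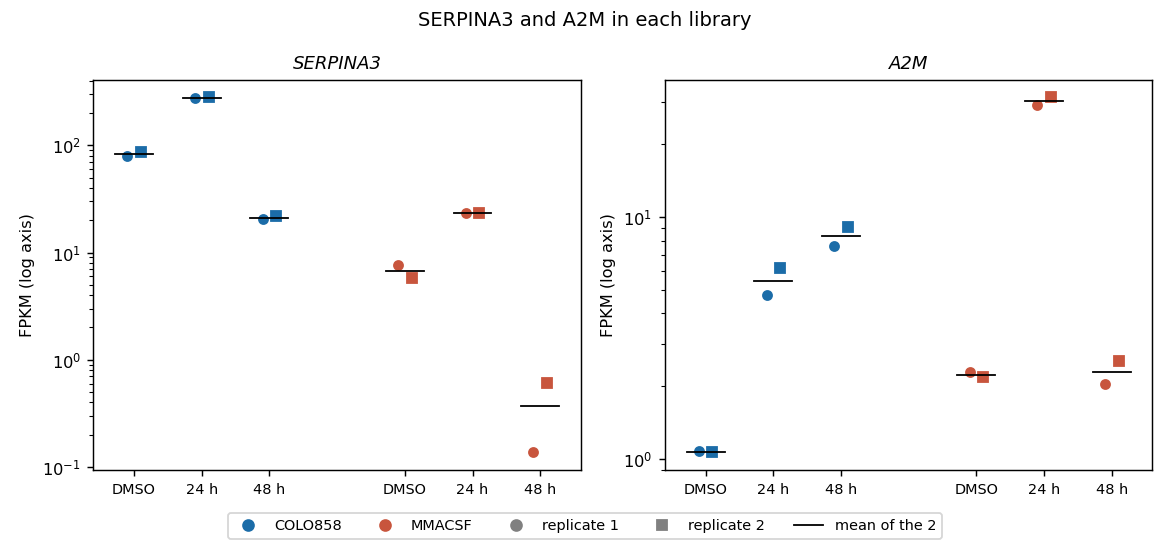
FPKM of SERPINA3 (left) and A2M (right) on a log axis in each of the 12 libraries, by group. Circles are replicate 1, squares replicate 2, and lines the mean of the 2. SERPINA3 stood highest at 24 h in both lines, and A2M rose on to 48 h in COLO858 but was back near 2.29 FPKM in MMACSF.

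SOCS3 (chr17:76352859-76356158, minus strand, GRCh37), which blocks JAK kinases bound to gp130, also stood highest at 24 h in both lines. Its FPKM in COLO858 was 1.74 and 1.11 under DMSO, 5.77 and 4.14 at 24 h, and 3.71 and 2.66 at 48 h. The MMACSF values were 7.15 and 5.46, 16.7 and 13.5, and 2.37 and 1.60. The 3 groups of each line did not overlap. At 48 h SOCS3 lay above DMSO in COLO858 and below it in MMACSF. None of these differences passed the threshold within a line. The log2 difference at 24 h was 1.30 (limma adjusted p = 0.0170) in COLO858 and 1.14 (adjusted p = 0.0211) in MMACSF. At 48 h it was 0.79 (adjusted p = 0.0659) and -1.29 (adjusted p = 0.0126). SOCS2 (chr12:93963590-93977263, plus strand), a feedback inhibitor of growth hormone signaling induced mainly by STAT5, stayed between 5.11 and 7.56 FPKM in COLO858 and between 2.43 and 4.06 FPKM in MMACSF. Both 24 h libraries lay below both DMSO libraries in each line, by a log2 difference of -0.26 (adjusted p = 0.294) in COLO858 and -0.42 (adjusted p = 0.193) in MMACSF, and no SOCS2 difference passed the threshold.

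STAT3 (chr17:40465342-40540558, minus strand, GRCh37) itself rose with drug in COLO858. Its FPKM there was 32.4 and 35.3 under DMSO, 88.8 and 97.3 at 24 h, and 68.9 and 71.4 at 48 h. In MMACSF it was 43.8 and 47.3 under DMSO, 68.9 and 79.0 at 24 h, and 40.3 and 42.9 at 48 h. Both 24 h libraries were the highest of their line. The COLO858 level remained above DMSO at 48 h, and the MMACSF level did not. The summed melanocyte lineage markers were higher with drug at both times in both lines, in MMACSF also at 48 h, where STAT3 was not. Their part in the STAT3 change was not tested. In COLO858 the log2 difference was 1.43 ± 0.13 (SE; limma adjusted p = 0.00228) at 24 h and 1.03 ± 0.13 (adjusted p = 0.00559) at 48 h. The MMACSF difference was 0.69 (adjusted p = 0.0188) and -0.13 (adjusted p = 0.496). Without any 1 of the 4 libraries compared, the adjusted p in COLO858 was 0.0179 to 0.0231 at 24 h and 0.0320 to 0.0440 at 48 h, no longer under 0.01.

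BCL3 (chr19:45250962-45263301, plus strand, GRCh37), a cofactor of NF-κB p50 and p52 that STAT3 can induce, was highest at 24 h, with a wide spread between replicates. Its FPKM in COLO858 was 11.8 and 6.19 under DMSO, 26.7 and 15.8 at 24 h, and 13.9 and 7.79 at 48 h. MMACSF libraries had 5.66 and 3.41, 14.3 and 7.06, and 7.00 and 4.74. Both 24 h libraries were above the other 4 of the line, while the DMSO and 48 h groups overlapped. Replicate 1 was higher than replicate 2 in all 6 groups, by 1.48- to 2.02-fold. Within each replicate number the 24 h library was above both others of its line. The log2 difference at 24 h was 1.17 (adjusted p = 0.103) in COLO858 and 1.03 (adjusted p = 0.118) in MMACSF. Libraries of replicate 1 were likewise the higher in all 6 groups for SOCS3, and those of replicate 2 for STAT3, IL6ST, OSMR, and LIFR. The tests above take no account of the replicate number, whose meaning no label gives.

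**Figure D2:**
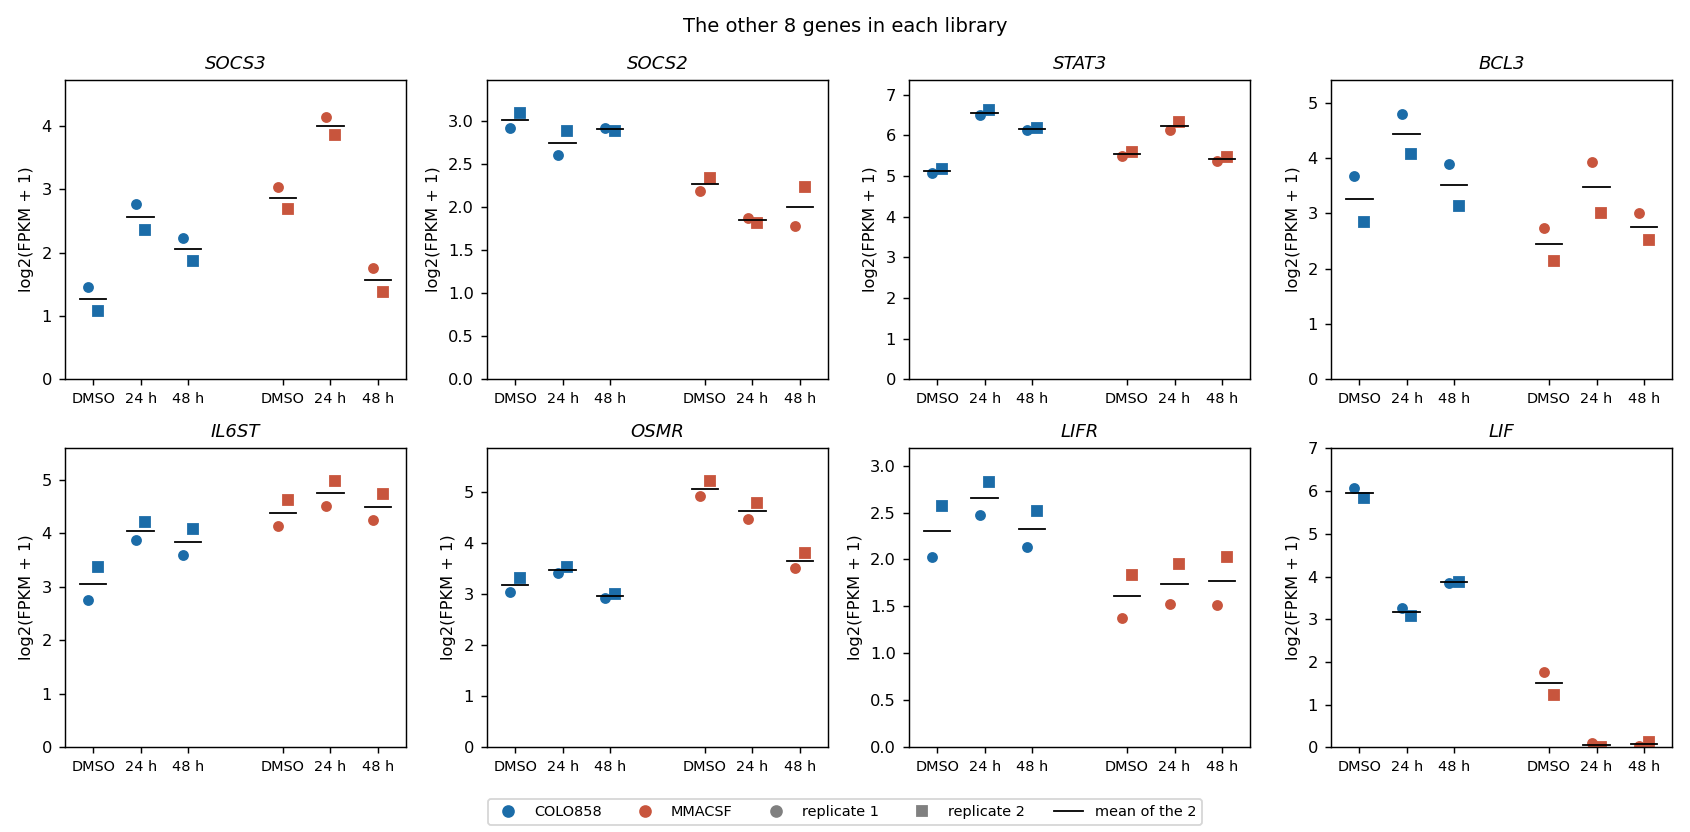
Level of the other 8 genes as log2(FPKM + 1) in each of the 12 libraries, by group. Circles are replicate 1, squares replicate 2, and lines the mean of the 2. STAT3, SOCS3, and BCL3 stood highest at 24 h in both lines, LIF was lower with drug in both, and OSMR fell over 48 h in MMACSF.

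Among the receptor chains IL6ST, OSMR, and LIFR only OSMR changed past the threshold, and only in MMACSF at 48 h. IL6ST (chr5:55230923-55290850, minus strand, GRCh37), the signaling chain shared by the family, was 5.70 and 9.33 FPKM under DMSO in COLO858, 13.6 and 17.5 at 24 h, and 11.1 and 15.8 at 48 h. The MMACSF values were 16.7 and 23.7, 21.8 and 30.5, and 18.1 and 25.7. The drug-treated COLO858 libraries lay above both DMSO libraries, whereas the MMACSF groups overlapped. The log2 difference in COLO858 was 0.98 (adjusted p = 0.0621) at 24 h and 0.78 (adjusted p = 0.111) at 48 h. LIFR (chr5:38474770-38608456, minus strand), the chain that binds LIF, ranged from 3.06 to 6.10 FPKM in COLO858 and from 1.60 to 3.07 FPKM in MMACSF. Its groups overlapped in both lines and no difference passed the threshold. LIFR contains the same-strand MIR3650, listed at up to 328 FPKM in COLO858 and 898 FPKM in MMACSF, so reads at that place could be counted for either.

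OSMR (chr5:38845960-38945698, plus strand, GRCh37) forms the oncostatin M receptor with gp130. Its FPKM in COLO858 was 7.18 and 8.91 under DMSO, 9.59 and 10.6 at 24 h, and 6.63 and 6.98 at 48 h. In MMACSF it was 29.2 and 36.3, 21.2 and 26.7, and 10.4 and 12.9. The 3 MMACSF groups did not overlap and stood in descending order. Fibroblast markers were also lowest in MMACSF at 48 h, and their part in the OSMR change was not tested. Its mean FPKM in MMACSF at 48 h was 2.81-fold below DMSO, with a log2 difference of -1.42 ± 0.19 (SE; limma adjusted p = 0.00754). Without any 1 of the 4 libraries the adjusted p was 0.0350 to 0.0555, and with no minimum level it was 0.0113. In COLO858 the log2 difference was 0.30 (adjusted p = 0.226) at 24 h and -0.21 (adjusted p = 0.393) at 48 h. OSMR overlaps RICTOR on the opposite strand, which was listed at no more than 7.31 FPKM in COLO858 and 12.2 FPKM in MMACSF.

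LIF (chr22:30636442-30642748, minus strand, GRCh37), the only ligand of the 10, had the largest fall of the 10 from DMSO in COLO858. Its FPKM in COLO858 was 66.5 and 56.0 under DMSO, 8.61 and 7.43 at 24 h, and 13.5 and 13.7 at 48 h. In MMACSF it was 2.39 and 1.34 under DMSO, 0.0756 and listed at 0 at 24 h, and 0.0278 and 0.0964 at 48 h. All 4 drug-treated libraries of each line lay below both DMSO libraries. In COLO858 the mean was 7.64-fold below DMSO at 24 h and 4.52-fold at 48 h. The log2 difference was -2.79 ± 0.15 (SE; limma adjusted p = 0.000829) at 24 h and -2.09 ± 0.15 (adjusted p = 0.00148) at 48 h. Without 1 library the adjusted p was 0.00911 to 0.0104 at 24 h, past 0.01 only without replicate 2 of 24 h, and 0.0125 to 0.0163 at 48 h. In MMACSF the log2 difference was -1.44 (adjusted p = 0.0124) and -1.41 (adjusted p = 0.0108), from levels near 1 FPKM.

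**Figure D3:**
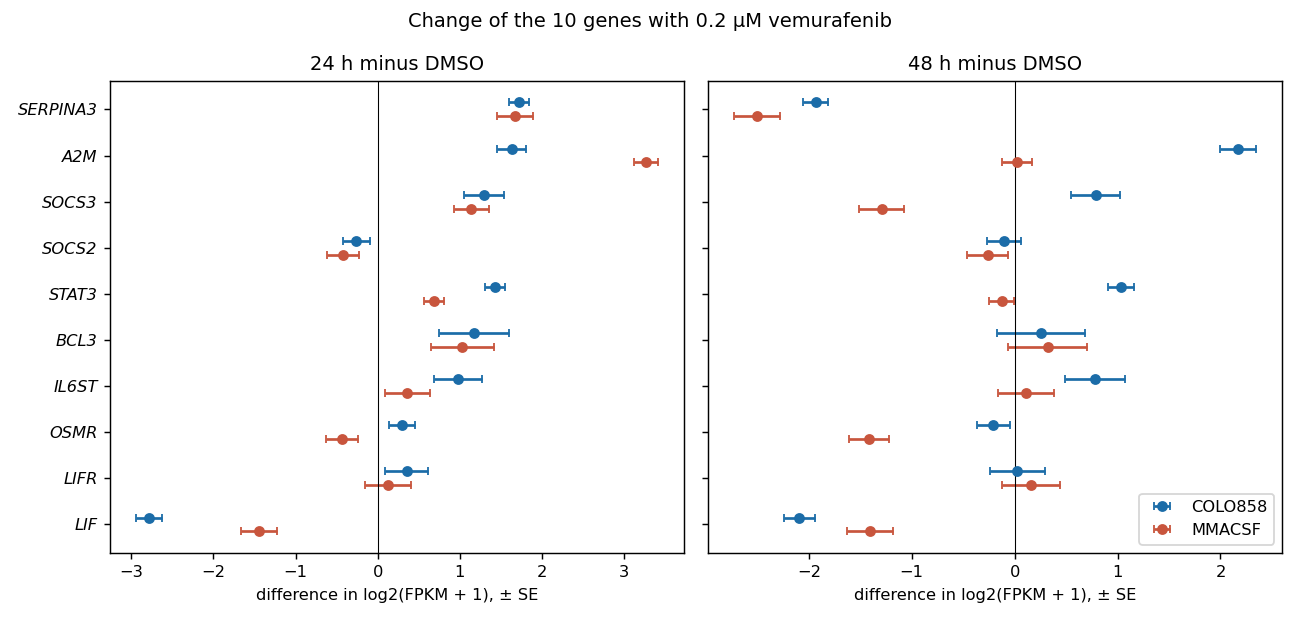
Difference in log2(FPKM + 1) from DMSO for the 10 genes at 24 h (left) and 48 h (right), with the SE of the fit over 2 replicates per group. SERPINA3 is on opposite sides of 0 at the 2 times in both lines. SOCS3 at 48 h is 0.79 in COLO858 and -1.29 in MMACSF.

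Of the 8 tested genes, 1 rose (STAT3) and 1 fell (LIF) in COLO858 at 24 h, where 4.11% of all genes tested rose and 5.71% fell. The same 2 genes were called at 48 h, beside 4.74% and 4.73% of all genes. In MMACSF 0 of 8 passed by limma at 24 h, with 4 at an unadjusted p under 0.05, where 2.22% of all genes rose and 3.6% fell. At 48 h 1 of 8 fell (OSMR) and 0 rose, beside 3.42% rising and 5.41% falling. Between 24 and 48 h 0 of 8 passed by limma in either line, with 3 at an unadjusted p under 0.05 in each. The background there was 1.17% higher and 0.213% lower in COLO858, and 0.111% in each direction in MMACSF. The median log2 difference of the 8 was 0.67 in COLO858 and 0.24 in MMACSF at 24 h, beside 0.06 and 0.07 over all genes. At 48 h it was 0.14 and -0.19, beside -0.01 and 0.06.

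A level was counted as highest at 24 h where both 24 h libraries of a line lay above its 4 others. That held for 5 of the 10 genes in COLO858 (SERPINA3, SOCS3, STAT3, OSMR, and BCL3), against 13.1% of all genes tested, or 1663 genes. It held for 5 of 10 in MMACSF (SERPINA3, A2M, SOCS3, STAT3, and BCL3), against 6.69%, or 843 genes. As SERPINA3 and A2M were selected on this pattern, and the other 8 with earlier results known, nothing is read from these shares. The 4 genes SERPINA3, SOCS3, STAT3, and BCL3 did so in both lines, as did 211 of the 11700 genes tested in both (1.8%). With a rise and a later fall of at least 1 on the log2 scale in both lines, 3 genes were left, named after their values were seen. They were SERPINA3, the secreted factor ANGPTL7, and the transcription factor RUNX1. SERPINA3 was selected on this same pattern, so nothing is read from its place among them. RUNX1 rose by 1.73 and then fell by 1.88 in COLO858, and rose by 1.59 and fell by 1.41 in MMACSF, on the log2 scale and without a test.

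**Figure D4:**
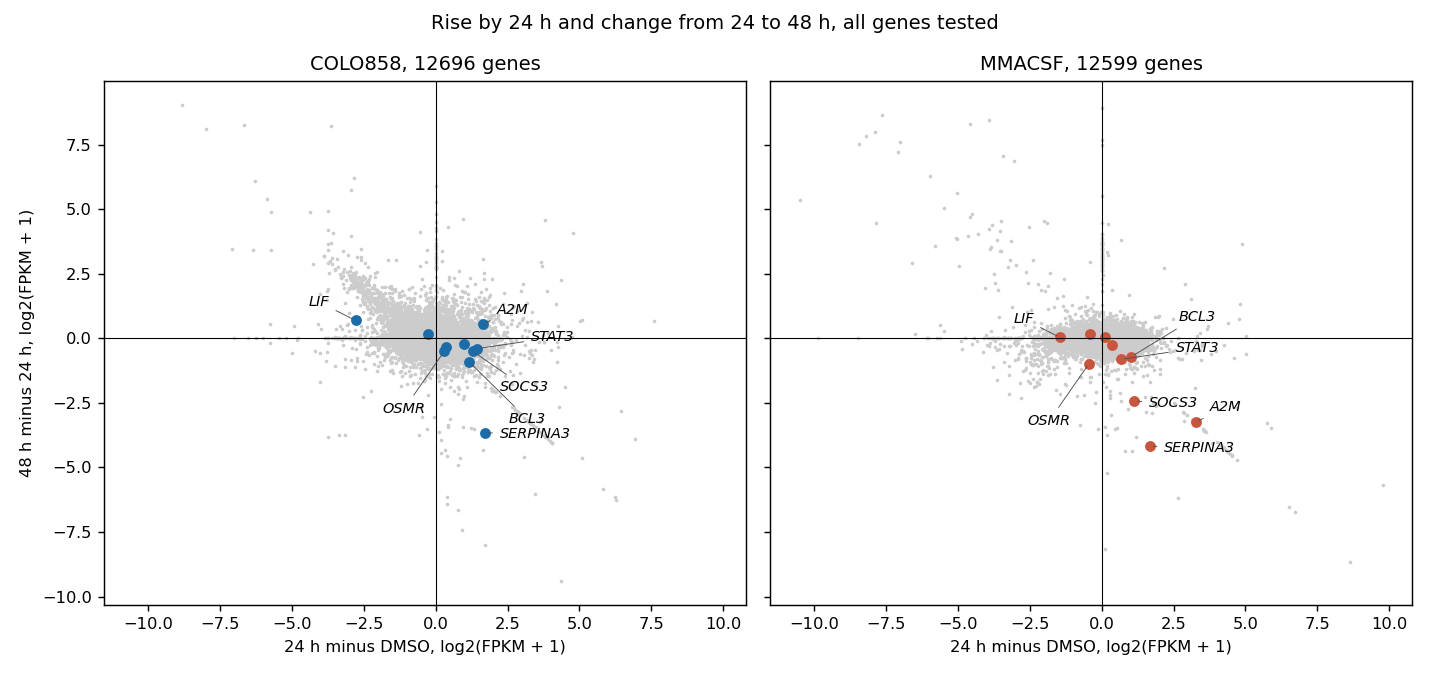
Difference in log2(FPKM + 1) of 24 h from DMSO (x axis) against that of 48 h from 24 h (y axis) for every gene tested (grey) and the 10 genes (colored, the main ones named). A peak at 24 h lies at the lower right. SERPINA3 lies there in both lines and A2M in MMACSF only.

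The response of STAT3 and of SOCS3 differed between the lines at 48 h, tested as the change in COLO858 minus that in MMACSF over all 12 libraries and 13595 genes. For STAT3 the difference was 1.16 ± 0.15 on the log2 scale (SE; limma adjusted p = 0.00168). It remained under 0.01 without each of the 8 libraries in turn, at 0.00498 to 0.00995. For SOCS3 it was 2.08 ± 0.33 (adjusted p = 0.00419), and it was over 0.01 in 6 of 8 such fits, at 0.00933 to 0.0198. At 48 h 2 of the 8 genes were thus called, both with the more positive change in COLO858. Over all genes 4.19% differed in that direction and 3.3% in the other. At 24 h 0 of 8 passed by limma, with 3 at an unadjusted p under 0.05, beside 1.78% and 1.93% of all genes. STAT3 came to 0.75 there (adjusted p = 0.0200), and 0.00628 after rescaling the libraries. LIF came to -1.34 (adjusted p = 0.0157), but with 0.1 FPKM added in place of 1 the sign turned, to 0.92. OSMR came to 1.21 at 48 h (adjusted p = 0.0134), and 0.00283 after rescaling. For the untested pair, SERPINA3 differed between the lines by 0.05 at 24 h and 0.57 at 48 h, and A2M by -1.64 and 2.15.

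Beyond these genes, a list of 83 others of the pathway was followed, of which 51 were tested in COLO858 and 49 in MMACSF. In COLO858 2 rose and 7 fell at 24 h, beside 4.11% and 5.71% of all genes tested, and 3 rose and 10 fell at 48 h, beside 4.74% and 4.73%. In MMACSF 2 rose and 2 fell at 24 h, beside 2.22% and 3.6%, and 4 rose and 5 fell at 48 h, beside 3.42% and 5.41%. From 24 to 48 h only CCND1 changed, rising in COLO858, and 0 passed by limma in MMACSF, with 6 at an unadjusted p under 0.05. When each library compared was left out in turn, 32 of the 36 pathway calls within a line were lost every time, at adjusted p-values of 0.0111 to 0.0686. CCND1 kept 3 of its 5 calls (both lines at 24 h and MMACSF at 48 h), and NNMT was lost in 2 of 4 fits, those without a 48 h library. The median log2 difference of the list was -0.08 at 24 h and -0.36 at 48 h in COLO858, beside 0.06 and -0.01 over all genes. The MMACSF medians were 0.04 and -0.04, beside 0.07 and 0.06.

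Of 9 further ligands, 3 were tested in COLO858 and 2 in MMACSF. IL11 was 3.80 and 3.25 FPKM under DMSO in COLO858 and at most 0.272 FPKM with drug, a log2 difference of -1.90 at 24 h (adjusted p = 0.00170) and -1.89 at 48 h (adjusted p = 0.00177). CLCF1, which signals through the CNTF receptor, fell from 4.50 and 3.97 FPKM to 1.03 and 0.686 at 24 h (-1.50, adjusted p = 0.00504). Ligand RNA of this family was thus lower with drug in COLO858 for LIF, IL11, and CLCF1. IL6 was at most 0.178 FPKM in COLO858 and 0.468 FPKM in MMACSF, and OSM was listed at 0 in all 12 libraries.

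Among 7 further receptor chains, IL11RA rose and CNTFR and IL27RA fell. IL11RA was 8.30 and 7.44 FPKM under DMSO and 18.2 and 15.8 at 48 h in COLO858 (1.02, adjusted p = 0.00922). In MMACSF it went from 7.89 and 6.21 FPKM to 19.2 and 20.2 at 24 h (1.37, adjusted p = 0.00509) and 16.7 and 16.8 at 48 h (1.15, adjusted p = 0.00645). In COLO858 CNTFR, a chain that binds CNTF and CLCF1, fell from 3.67 and 3.30 FPKM to 0.318 and 0.203 at 48 h (-1.83, adjusted p = 0.00196). It was not tested in MMACSF, where it reached at most 0.0885 FPKM. IL27RA fell in COLO858 from 2.93 and 2.50 FPKM to 0.403 and 0.487 at 48 h (-1.36, adjusted p = 0.00370). IL10RB, the most abundant of these chains, ranged from 12.8 to 20.9 FPKM in COLO858 and 18.4 to 34.8 FPKM in MMACSF, with no call.

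Among the kinases, JAK1 was 11.2 and 14.0 FPKM under DMSO in COLO858 and 22.7 and 26.1 in MMACSF, and TYK2 was 13.6 to 23.0 FPKM over both lines. Neither passed the threshold at either time. JAK2 was listed at 0 under DMSO and at 24 h in COLO858 and reached 0.0344 FPKM at 48 h, whereas in MMACSF it was 4.72 to 7.24 FPKM in every library. Of 6 other STATs, STAT2 and STAT6 rose. STAT2, which works in the interferon response, went from 5.83 and 6.68 FPKM to 24.4 and 27.8 at 24 h in COLO858 (1.90, adjusted p = 0.00221) and from 71.9 and 80.8 to 185 and 207 in MMACSF (1.35, adjusted p = 0.00441). At 48 h it was still raised, by 1.86 (adjusted p = 0.00241) and 1.21 (adjusted p = 0.00462). STAT6, the mediator of IL-4 signaling, rose by 1.01 at 24 h (adjusted p = 0.00520) and 1.11 at 48 h (adjusted p = 0.00440) in COLO858, and by 0.80 at 48 h (adjusted p = 0.00559) in MMACSF. Of 14 other inhibitors and phosphatases, 13 were tested in COLO858 and 12 in MMACSF, and 0 passed by limma in any comparison, with 2 to 4 at an unadjusted p under 0.05 against DMSO. PTPN1 and PTPN11, the most abundant, ranged from 30.4 to 82.4 FPKM.

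The target list held 19 genes, which other routes control too, with 17 tested in COLO858 and 18 in MMACSF. In COLO858 3 fell at 24 h and 6 at 48 h, beside 5.71% and 4.73% of all genes tested. In MMACSF 2 and 5 fell, beside 3.6% and 5.41%. Against DMSO 0 rose in either line, where 4.11% and 4.74% of all genes rose in COLO858 and 2.22% and 3.42% in MMACSF. With so few genes tested, nothing is read from the 0. CCND1 (cyclin D1, which drives G1 progression and lies downstream of MAPK signaling) went from 418 and 466 FPKM to 48.1 and 50.4 at 24 h and 125 and 134 at 48 h in COLO858. The log2 difference was -3.14 at 24 h (adjusted p = 0.000539), -1.76 at 48 h (adjusted p = 0.00126), and 1.38 from 24 to 48 h (adjusted p = 0.00744). In MMACSF CCND1 fell by 3.08 on the log2 scale at 24 h (adjusted p = 0.000503) and 2.64 at 48 h (adjusted p = 0.000428). PIM1, a survival kinase and STAT3 target, fell in COLO858 from 7.44 and 8.17 FPKM to 1.63 and 1.37 at 24 h (-1.82, adjusted p = 0.00179). In MMACSF it ranged from 2.67 to 3.74 FPKM, with no call. FOS and ICAM1 fell at 48 h in both lines, by 1.52 and 1.24 on the log2 scale in COLO858 (adjusted p = 0.00317 and 0.00343) and by 2.23 and 1.17 in MMACSF (adjusted p = 0.00107 and 0.00398). KLF4 fell in COLO858 by 1.56 at 24 h (adjusted p = 0.00597) and by 1.47 at 48 h (adjusted p = 0.00746).

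MYC fell in COLO858 at 48 h, from 136 and 113 FPKM to 39.7 and 36.3 (-1.68, adjusted p = 0.00274). In MMACSF it went from 74.7 and 63.8 FPKM to 22.7 and 17.4 at 24 h (-1.74, adjusted p = 0.00438) and 31.0 and 26.9 at 48 h (-1.23, adjusted p = 0.00842). NNMT, a metabolic methyltransferase, went in MMACSF from 13.2 and 9.18 FPKM to 3.10 and 3.84 at 24 h and was listed at 0 at 48 h (adjusted p = 0.000812). It was listed at 0 in all 6 COLO858 libraries. TIMP1, an inhibitor of matrix metalloproteases, was 279 and 244 FPKM under DMSO in COLO858 and 180 and 165 at 48 h (adjusted p = 0.0251).

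Of 15 acute phase genes on the pathway list, 14 stayed under 1 FPKM in every library of both lines and were not tested. They included SERPINA1, HP, CRP, and C3, and SAA2 reached 0.519 FPKM. The one tested, CP, was 0.727 to 2.39 FPKM in COLO858 and 2.01 to 3.02 FPKM in MMACSF, with no call. Of the relatives and partners of the 2 protease inhibitors, LRP1, the receptor that clears A2M complexes, rose in MMACSF from 35.4 and 22.3 FPKM to 97.5 and 81.7 at 48 h (1.63, adjusted p = 0.009996). In COLO858 it was 4.48 and 3.18 FPKM under DMSO and 13.4 and 8.08 at 48 h (adjusted p = 0.0299). SERPINA5, which lies in the same gene cluster as SERPINA3, fell in COLO858 from 26.3 and 28.9 FPKM to 7.78 and 9.33 at 48 h (-1.59, adjusted p = 0.00320). It differed in course from SERPINA3 at 24 h, where it was 22.3 and 25.1 FPKM. NFKB1, the precursor of the p50 that BCL3 binds, ranged from 9.10 to 16.3 FPKM over both lines, with no call.

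**Figure D5:**
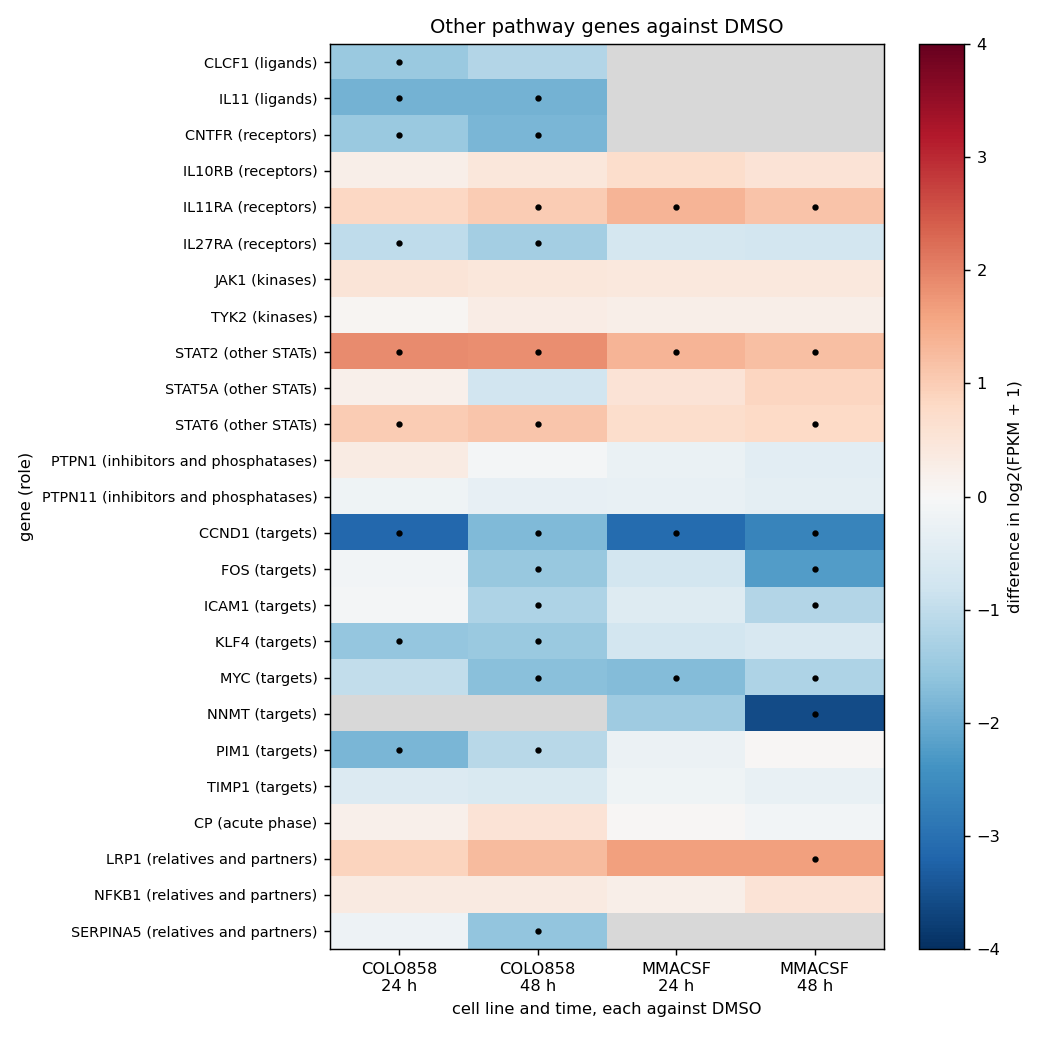
Difference in log2(FPKM + 1) from DMSO of the named pathway genes, by role, in each line at each time. Dots mark an adjusted p under 0.01 and grey cells genes not tested in that line. STAT2 rose in all 4 columns and CCND1 fell in all 4.

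Of these 83 genes 54 entered the test between lines. At 24 h the changes of CLCF1, CNTFR, IL11, and PIM1 were less positive in COLO858, beside 1.93% of all genes tested. BCL2L1 (0.89, limma adjusted p = 0.00500) and NNMT lay on the other side, beside 1.78%. At 48 h the changes of CLCF1, CNTFR, IL11, PIM1, SERPINA5, and STAT5A were less positive in COLO858, beside 3.3% of all genes tested. Those of CCND1 (0.87, limma adjusted p = 0.00577) and NNMT were more positive, beside 4.19%. NNMT was listed at 0 in every COLO858 library, so its difference is its fall in MMACSF. CLCF1, CNTFR, IL11, and SERPINA5 were at most 0.389 FPKM in every MMACSF library, so a fall of the same size could not have been seen there. STAT5A went from 1.03 and 1.14 FPKM to 0.220 and 0.213 at 48 h in COLO858 and from 10.5 and 8.66 to 19.2 and 16.8 in MMACSF, a difference of -1.62 (adjusted p = 0.000636). Of the 14 calls between lines, 8 held without each of the 8 libraries in turn, those of CNTFR and IL11 at both times, PIM1 at 24 h, and NNMT, SERPINA5, and STAT5A at 48 h.

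The genes whose course was most like that of the protease inhibitors were ranked by Pearson's r over the 12 libraries, each taken as its deviation from the DMSO mean of its line. Ranked were 6359 genes tested in both lines with deviations spanning at least 1. For SERPINA3 they were IGFBP5 (0.94), LOC645591 (0.92), WARS (0.91), FSBP (0.88), and ITPRIPL2 (0.88). IGFBP5, an insulin-like growth factor binding protein, differed from DMSO by 0.33 and later by -1.19 in COLO858, and by 0.11 and later -1.28 in MMACSF. For A2M they were S100A1 (0.96), C10orf10 (0.92), C1R (0.91), KCNMB4 (0.88), and CRYM (0.87). C1R, a complement protease, differed by 1.40 and later 1.46 in COLO858 and by 1.65 and later 0.62 in MMACSF. Between SERPINA3 and A2M themselves r was 0.43. The libraries share DMSO means, groups, and lines, and these values are descriptions.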

How the data were processed

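Per the labels and the study's methods, RNA of plates in replicate was made into stranded TruSeq mRNA libraries with ERCC spike-in and read as single 50-base reads. TopHat, run by the authors with its defaults on hg19, aligned them, and Cuffdiff was run on Galaxy. The deposited values were taken as FPKM, from the methods and the values. Program versions, annotation, scaling, and strand setting are not given in the sources used here, so reads of a gene and an antisense partner may not have been separated. The 12 sample columns were all used, with 0 unused.

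Values were log2-transformed after adding 1 FPKM and fitted with limma 3.58.1 in R 4.3.3 (eBayes with trend), 3 groups per line without a replicate block, or 6 groups over both lines for differences between them. The threshold of 0.01 is the study's. The SE of a difference comes from this fit. Read depth is unknown, so no counting error is given. On simulated data 162 of 200 genes changed by a log2 of 2 were recovered in COLO858 at 24 h (12696 genes, 7 false calls) and 178 in MMACSF (12598 genes, 3 false calls). The changed genes were drawn from those with a mean above 2 on the log2(FPKM + 1) scale. Noise was independent between libraries, with no effect of the replicate number. The recovery therefore does not apply to low genes, to effects shared by replicates, or to changes smaller than a log2 of 2.

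The members and the lists were chosen with earlier results of these data known. Named are all 10 genes, pathway genes called with a log2 difference of at least 1 in any of 8 comparisons, the 2 most abundant of each role, and the 5 genes most like SERPINA3 and A2M each. BCL2L1, IL6, OSM, and JAK2 were named after their values were seen. Values of some pathway genes that this rule names are not reported here. Alternatives were 0.1 FPKM added, no minimum, median-ratio rescaling, the replicate block, and leaving out each library. Gene coordinates are GENCODE v44 lifted to GRCh37.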

Additional observations from a re-analysis of the deposited data

Results flagged for a closer look

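The change with drug differed between the lines for 9 genes of the pathway by at least 1 in the interaction test, all with a limma adjusted p under 0.01, given as the change in COLO858 minus that in MMACSF on the log2(FPKM + 1) scale. STAT3 differed by 1.16 and SOCS3 by 2.08 at 48 h, where SOCS3 lay above DMSO in both COLO858 libraries and below it in both MMACSF libraries. STAT5A differed by -1.62 at 48 h. PIM1 differed by -1.60 at 24 h and -1.14 at 48 h. IL11 differed by -1.96 and -1.95, CLCF1 by -1.48 and -1.45, and CNTFR by -1.54 and -1.83 at the 2 times, and SERPINA5 by -1.59 at 48 h. These last 4 genes were under 1 FPKM in MMACSF under DMSO, which leaves no room for a fall there. NNMT differed by 1.43 and 3.59, and it was listed at 0 in COLO858 throughout.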

How the results depend on the processing

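SERPINA3 and A2M kept the direction of their differences of 24 h from DMSO and of 48 h from 24 h under every alternative run; those of 48 h from DMSO were not recomputed. With 0.1 FPKM added in place of 1, the A2M rise at 24 h was 2.23 in COLO858 and 3.70 in MMACSF, and from 24 to 48 h in MMACSF A2M was -3.67 and SERPINA3 -5.85, larger by construction for low values. Rescaling moved SERPINA3 from 24 to 48 h in COLO858 to -3.58. Without 1 library SERPINA3 ranged from 1.66 to 1.78 and -3.70 to -3.62 in COLO858 and from 1.51 to 1.84 and -4.42 to -3.93 in MMACSF (24 h against DMSO, then 48 h against 24 h). A2M ranged from 1.47 to 1.79 and 0.38 to 0.70 in COLO858 and from 3.22 to 3.32 and -3.36 to -3.13 in MMACSF.

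Counts of called genes among the 8 and the 83 depended on the number of libraries. In COLO858 11 were called at 24 h, 15 at 48 h, and 1 between the times, and in MMACSF 4, 10, and 0. Between lines there were 6 at 24 h and 10 at 48 h. Without 1 library these became 1 to 2, 0 to 0, and 0 to 0 in COLO858, 1 to 1, 1 to 2, and 0 to 0 in MMACSF, and 3 to 5 and 6 to 7 between lines, a group then being held by 1 library whose spread is assumed to be that of the others. Over all genes the COLO858 calls at 24 h fell from 1247 to 114 to 154. With 0.1 FPKM added there were 2 calls between the times in COLO858, 1 in MMACSF, and 3 between lines at 24 h. The COLO858 count between the times was 0 with no minimum and 2 after rescaling; the cause was not tested.

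Over all genes tested, samples with the same replicate number deviated together weakly, with r of 0.196 to 0.211 in COLO858 and 0.0628 to 0.113 in MMACSF. SOCS3, BCL3, STAT3, IL6ST, OSMR, and LIFR kept the same order of replicates in every group. No label says what the number marks. With the replicate block the counts were 29, 37, and 12 in COLO858, 21, 21, and 1 in MMACSF, and 15 and 25 between lines. Of the 8 genes, 23 more differences passed, so a difference given above as not called can depend on leaving the block out. Over all genes the block called 5719, 5549, and 2280 of 12696 in COLO858 and 3284, 3790, and 32 of 12599 in MMACSF. Between lines it called 2396 and 3434 of 13595. The counts given first are out of 59 genes tested in COLO858, 57 in MMACSF, and 62 between lines, and nothing is read from them.

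The log2 difference of LIF between lines reversed with 0.1 FPKM added, to 0.92 at 24 h and 1.42 at 48 h, where MMACSF values are near 0. SOCS3 passed in MMACSF at 48 h with 0.1 FPKM added (-1.63, adjusted p = 0.00998). Without 1 library, uncalled differences near 0 changed sign. LIFR ranged from -0.25 to 0.30 in COLO858 at 48 h, from -0.10 to 0.36, -0.10 to 0.42, and -0.22 to 0.29 in MMACSF (24 h, 48 h, and between them), and from -0.05 to 0.50 and -0.41 to 0.14 between lines. BCL3 ranged from -0.16 to 0.67 in COLO858 at 48 h and from -0.32 to 0.60 and -0.49 to 0.35 between lines. IL6ST ranged from -0.44 to 0.03 between the times in COLO858 and from -0.13 to 0.36 in MMACSF at 48 h. SOCS3 ranged from -0.04 to 0.35 between lines at 24 h. SOCS2 ranged from -0.07 to 0.38 between lines at 48 h and in MMACSF between the times, and LIF from -0.02 to 0.09 there. The number of genes highest at 24 h ran from 1512 to 3667 in COLO858, and from 821 to 3123 in MMACSF, over all alternatives. Depth is unknown, and 2 replicates per group limit every test.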
